A study of Mus musculus with 6 samples.

Results

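The glycolysis and hypoxia response genes are 36 listed mouse genes that carry glucose through glycolysis to lactate or belong to the oxygen sensing pathway of the hypoxia-inducible factors (HIF). They were taken by name from a fixed list, which was chosen with earlier results of these data known. Each of the 36 matched 1 Ensembl gene ID among the 38561 in the count tables. All 36 passed the filter on low counts, as did 19024 genes in all. RNA was sequenced in 2 libraries for each of 3 groups, and the mice were NG2-Cre;p53flox/flox of mixed background throughout. The groups were soft tissue sarcomas of the subcutaneous tissue, osteosarcomas (replicate 1 from the right tibia, replicate 2 from the lumbar spine), and cells that an NG2 antibody had sorted out of skeletal muscle, called NG2 cells here. NG2-Cre expresses Cre recombinase from regulatory sequence of Cspg4, which encodes the pericyte proteoglycan NG2, and Cre cuts loxP-flanked exons out of Trp53, a tumour suppressor. The mice of all 3 groups thus carried the same alleles. Neither ages nor the animal behind each library were given, so p-values measure only the spread between these libraries, which may be technical.

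Glycolysis splits glucose into pyruvate in the cytosol. Cells that are short of oxygen, and many tumour cells even with oxygen, turn pyruvate into lactate and export it. In the presence of oxygen, prolyl hydroxylases of the Egln family mark the HIF alpha subunits for destruction by the VHL ubiquitin ligase. When oxygen falls, the alpha subunits persist, pair with ARNT and raise the transcription of glucose transporters, glycolytic enzymes and other targets. HIF alpha subunits are controlled largely as proteins, which RNA levels do not show.

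Reads counted on genes came to between 27693585 and 58126832 per library. Levels are in CPM, read counts scaled to library size. Trp53 itself was at 31.2 and 27.3 CPM in soft tissue sarcoma, 24.3 and 32.6 CPM in osteosarcoma, against 101 and 82.3 CPM in NG2 cells, and counts per gene cannot show the deleted part. In NG2 cells the pericyte marker Rgs5 stood at 772 and 1290 CPM, above every tumour library, while Cspg4 stood at 188 and 88.7 CPM in soft tissue sarcoma, 118 and 37.7 CPM in osteosarcoma, against 38.6 and 30.6 CPM in NG2 cells. Kcnj8 was also above every tumour library in both NG2 cell libraries, whereas Pdgfrb, Mcam, Acta2 and Cox4i2 were below every tumour library there. The 11 pericyte and mural cell markers summed to 1063 and 713 CPM in soft tissue sarcoma and 691 and 1820 CPM in osteosarcoma. In NG2 cells they summed to 1074 and 1684 CPM, and osteosarcoma overlapped with both other groups. Other cell types were present: the 10 B and T lymphocyte markers, all detected in both NG2 cell libraries, summed to 155 and 109 CPM in soft tissue sarcoma, 54.1 and 60.0 CPM in osteosarcoma, against 9483 and 4454 CPM in NG2 cells, and the 8 macrophage markers to 5088 and 4238 CPM in soft tissue sarcoma, 2009 and 1925 CPM in osteosarcoma, against 734 and 1593 CPM in NG2 cells. The 8 proliferation genes summed to 820.1 and 815 CPM in soft tissue sarcoma, 1418 and 879 CPM in osteosarcoma, against 125 and 214 CPM in NG2 cells. The 6 osteoclast markers stood at 918 CPM in osteosarcoma replicate 1 and at 19803 CPM in replicate 2. The 8 granulocyte markers summed to 71.5 CPM in NG2 cell replicate 1 and 3530 CPM in replicate 2, and to between 11.5 and 27.8 CPM in the tumours. In bulk samples fewer cells of a type and less RNA per cell cannot be told apart, and the part of these cell types in the results below was not tested.

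The tumours gave a larger share of their RNA to these genes than the sorted cells. Of all gene counts, the 36 genes took 1.19% and 1.59% in soft tissue sarcoma, 0.873% and 0.747% in osteosarcoma, against 0.411% and 0.453% in NG2 cells. Their 95% Wilson intervals, which cover counting error only, were at most 0.00932 percentage points wide. The abundant enzymes Aldoa, Tpi1, Gapdh, Pgk1, Pgam1, Eno1, Pkm and Ldha alone took 1.01% and 1.33% in soft tissue sarcoma, 0.753% and 0.626% in osteosarcoma, against 0.291% and 0.275% in NG2 cells. In both sums the soft tissue sarcomas were highest and the NG2 cells lowest, with no overlap between groups.

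In soft tissue sarcoma against NG2 cells 16 of the 36 genes rose, 2 fell and 18 did not pass the test. A gene is said to have risen or fallen where edgeR's quasi-likelihood test gave a Benjamini-Hochberg adjusted p under 0.05. Among all 19024 genes tested, 9.89% were called higher and 9.4% lower in that comparison. The median log2 fold change was 1.23 over the 36 genes and 0 over all genes tested. In osteosarcoma against NG2 cells 8 genes rose, 1 fell and 27 did not pass, where 10.5% of all genes tested were called higher and 11% lower. There the median was 0.24, beside 0.04 over all genes. Both comparisons use the same NG2 cell libraries, so their calls are not independent. Pfkm, Tpi1, Gapdh, Pgk1, Eno1, Ldha and Slc16a3 were called higher in each, and Slc2a3 lower in each.

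Both soft tissue sarcomas lay above both NG2 cell libraries for 25 of the 36 genes and below both for 4, where 35.8% and 34.6% of all genes tested did so. Both osteosarcomas lay above both NG2 cell libraries for 14 and below both for 8, where 32.7% and 32.4% of all genes tested did so.

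The number of calls depended on single libraries. Without soft tissue sarcoma replicate 1 or replicate 2, 0 of the 36 genes, and 0 of all genes tested, were called between soft tissue sarcoma and NG2 cells. Without NG2 cell replicate 1 or replicate 2, Pfkm, Tpi1 and Slc16a3 were the 3 called there. In osteosarcoma against NG2 cells 2 genes were called higher without NG2 cell replicate 1, NG2 cell replicate 2, soft tissue sarcoma replicate 1 or soft tissue sarcoma replicate 2, and also when the 4 libraries compared were fitted alone. Tpi1 was called in each of those fits.

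**Figure D1:**
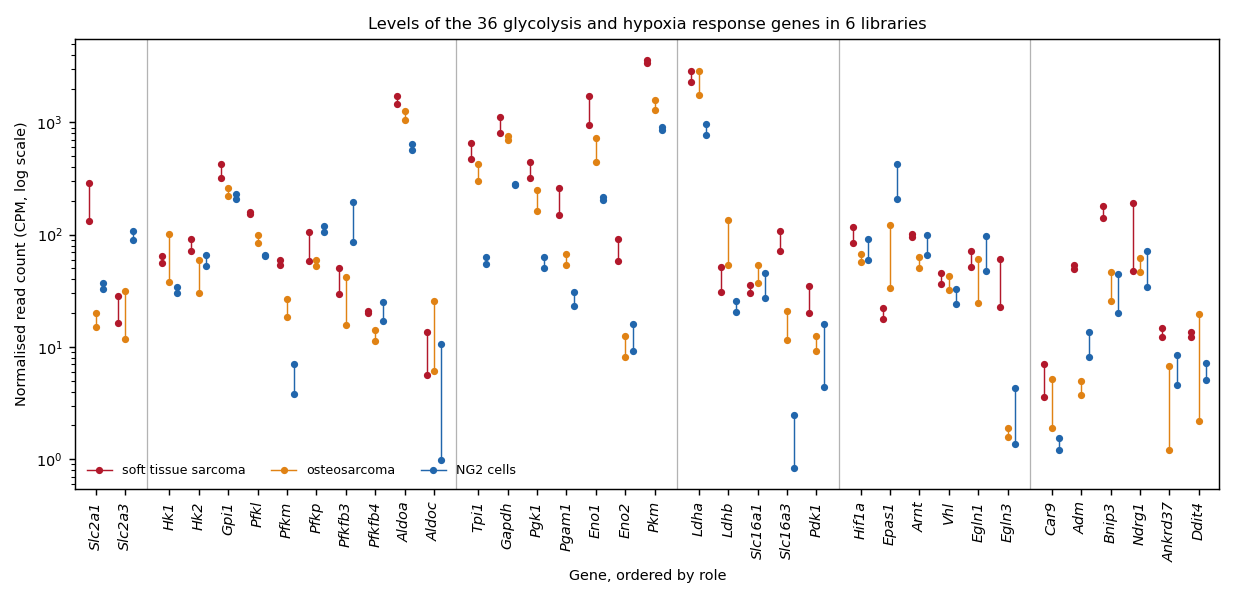
Normalised read counts (CPM, log axis) of the 36 genes, ordered by role from glucose uptake at the left to hypoxia targets at the right. Each point is 1 library, coloured by group; for the 7 genes of lower glycolysis both soft tissue sarcomas lie above both NG2 cell libraries.

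The promoters of some of these genes are shown because HIF binds the core letters ACGTG or GCGTG, and 6 genes that rose in soft tissue sarcoma can be read side by side. RefSeq start sites on GRCm38.p6 were found for 33 of the 36 genes (not Slc2a3, Epas1 or Ndrg1), and the 250 bases before 1 start per gene were searched for ACGTG and GCGTG on both strands. CACGT and CACGC are the same letters read from the other strand, and a CACGTG counts on each strand. At least 1 match stood in 26 of 33 windows, or 78.8%. Over all start sites of these genes, several for some, it was 37 of 46, or 80.4%. Counted in this second way, the share was 51.9% over the start sites of all genes tested and 38.6% over all start sites in the table. The sequences run 5' to 3' on the strand of the gene, up to the first start in either annotation, with the matches in capitals. They lie at chr4:119108495-119108710 for Slc2a1 (plus strand), chr12:54203875-54204124 for Egln3 (minus strand), chr7:110627407-110627656 for Adm (plus strand), chr7:138909520-138909756 for Bnip3 (minus strand), chrX:106186850-106187099 for Pgk1 (plus strand) and chr6:124769674-124769923 for Eno2 (minus strand).
Slc2a1: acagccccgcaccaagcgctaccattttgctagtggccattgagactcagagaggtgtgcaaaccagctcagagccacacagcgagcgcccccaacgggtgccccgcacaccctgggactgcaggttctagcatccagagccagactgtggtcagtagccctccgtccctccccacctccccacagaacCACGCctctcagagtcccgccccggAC
Egln3: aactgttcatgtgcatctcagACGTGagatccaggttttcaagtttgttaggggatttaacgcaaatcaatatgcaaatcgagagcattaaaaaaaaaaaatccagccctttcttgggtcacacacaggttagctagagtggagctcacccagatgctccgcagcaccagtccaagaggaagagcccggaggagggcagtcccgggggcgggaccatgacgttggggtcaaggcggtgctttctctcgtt
Adm: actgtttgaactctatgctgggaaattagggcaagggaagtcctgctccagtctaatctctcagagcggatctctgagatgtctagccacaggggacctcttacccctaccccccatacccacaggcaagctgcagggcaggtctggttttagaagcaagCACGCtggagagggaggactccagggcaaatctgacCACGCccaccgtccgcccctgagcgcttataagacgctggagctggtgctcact
Bnip3: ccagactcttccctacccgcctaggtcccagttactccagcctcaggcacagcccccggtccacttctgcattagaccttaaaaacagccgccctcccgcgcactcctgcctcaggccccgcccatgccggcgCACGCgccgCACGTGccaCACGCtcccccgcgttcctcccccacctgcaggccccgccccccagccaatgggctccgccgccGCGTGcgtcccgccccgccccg
Pgk1: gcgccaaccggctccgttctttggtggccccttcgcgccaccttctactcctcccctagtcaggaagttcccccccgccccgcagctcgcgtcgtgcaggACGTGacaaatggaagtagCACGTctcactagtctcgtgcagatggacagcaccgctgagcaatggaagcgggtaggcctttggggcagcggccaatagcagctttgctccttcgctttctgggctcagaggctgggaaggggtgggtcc
Eno2: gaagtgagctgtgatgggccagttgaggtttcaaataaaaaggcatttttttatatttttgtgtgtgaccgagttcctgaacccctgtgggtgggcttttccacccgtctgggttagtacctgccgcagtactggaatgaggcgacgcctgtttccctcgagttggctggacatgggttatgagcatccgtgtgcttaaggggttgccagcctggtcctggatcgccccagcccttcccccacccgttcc
Bnip3 had 5 matches, Egln3 had 1, and Pgk1, Adm and Slc2a1 had 2 each, of which the last in Slc2a1 is broken by the end of the stretch shown. Eno2 had 0 in this window. A match describes the letters and is not a site of binding.

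The glucose transporters moved apart. Slc2a1 (ENSMUSG00000028645; chromosome 4, 119108711 to 119137983, GRCm38 as for all positions here) encodes GLUT1, a widely used transporter and a known HIF target. It had 132 and 291 CPM in soft tissue sarcoma, 19.9 and 15.1 CPM in osteosarcoma, against 37.4 and 32.8 CPM in NG2 cells. The 3 groups did not overlap, with soft tissue sarcoma highest and osteosarcoma lowest. Slc2a1 rose 6.03-fold in soft tissue sarcoma over NG2 cells (log2 fold change 2.59 ± 0.44, SE, n = 2 per group, adjusted p = 0.0173), and the value was 3.83-fold without soft tissue sarcoma replicate 2. In osteosarcoma its log2 fold change of -1.01 ± 0.42 did not pass (adjusted p = 0.135). Slc2a3 (ENSMUSG00000003153; chromosome 6, 122727809 to 122801640) encodes GLUT3, a high-affinity transporter of neurons and leukocytes. Its levels were 16.3 and 28.2 CPM in soft tissue sarcoma, 31.8 and 11.7 CPM in osteosarcoma, against 108 and 89.6 CPM in NG2 cells. All tumour libraries were below both NG2 cell libraries. Slc2a3 fell 4.44-fold in soft tissue sarcoma (adjusted p = 0.0449) and 4.53-fold in osteosarcoma (adjusted p = 0.0413), the second value being 8.42-fold without osteosarcoma replicate 1. The lymphocyte markers given above were also lower in the tumours, and their part in the fall was not tested. Of the summed level of the pair per kilobase of exon, Slc2a1 made up 94.4% and 95.5% in soft tissue sarcoma, 56.3% and 72.6% in osteosarcoma, against 41.8% and 43.0% in NG2 cells.

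Upper glycolysis, the steps that spend ATP, held called genes at phosphofructokinase and aldolase in soft tissue sarcoma and at phosphofructokinase in osteosarcoma. Of its 10 listed genes, 3 rose and 7 did not pass in soft tissue sarcoma, and 1 rose and 9 did not pass in osteosarcoma. Over all genes tested, 9.89% and 10.5% were called higher in these comparisons. The count in osteosarcoma is near that share and says nothing of the list. Pfkm (ENSMUSG00000033065; chromosome 15, 98092589 to 98132451), the muscle-type phosphofructokinase, had 53.97 and 59.9 CPM in soft tissue sarcoma, 18.6 and 26.8 CPM in osteosarcoma, against 6.98 and 3.78 CPM in NG2 cells. The groups were ordered without overlap. It rose 10.6-fold in soft tissue sarcoma (log2 fold change 3.40 ± 0.44, adjusted p = 0.011) and 4.21-fold in osteosarcoma (2.07 ± 0.42, adjusted p = 0.0238). The 11 skeletal muscle fibre markers summed to 63.1 and 17.4 CPM in soft tissue sarcoma, 128 and 1048 CPM in osteosarcoma, against 116 and 101 CPM in NG2 cells. That list includes Eno3, Pgam2 and Pygm, which are themselves glycolysis or glycogen genes. In osteosarcoma replicate 1 Eno3 alone held 121 CPM, while Acta1 was at 3.77 CPM and Tnnt3 at 0.701 CPM. In osteosarcoma replicate 2 Acta1 held 859 CPM, and in NG2 cells 65.2 and 49.6 CPM. The part of muscle fibres in the levels of Pfkm was not tested. Pfkl (ENSMUSG00000020277; chromosome 10, 77986947 to 78010083), the liver-type subunit, had 159.5 and 154 CPM in soft tissue sarcoma, 99.0 and 84.3 CPM in osteosarcoma, against 65.3 and 64.6 CPM in NG2 cells, and rose 2.41-fold in soft tissue sarcoma (adjusted p = 0.0221), while its log2 fold change in osteosarcoma was 0.50 ± 0.24 (adjusted p = 0.177). Aldoa (ENSMUSG00000030695; chromosome 7, 126795234 to 126800751), the main aldolase, had 1460 and 1720 CPM in soft tissue sarcoma, 1046 and 1251 CPM in osteosarcoma, against 643 and 569 CPM in NG2 cells. Aldoa rose 2.62-fold in soft tissue sarcoma (adjusted p = 0.0232), and its log2 fold change of 0.92 ± 0.27 in osteosarcoma did not pass (adjusted p = 0.0564).

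The other 7 genes of upper glycolysis did not pass in either comparison with NG2 cells. The platelet-type subunit Pfkp was at 58.8 and 105 CPM in soft tissue sarcoma, 52.7 and 59.4 CPM in osteosarcoma, against 106 and 119 CPM in NG2 cells, with the NG2 cells highest (log2 fold changes -0.46 in soft tissue sarcoma and -1.01 in osteosarcoma, adjusted p = 0.367 and 0.0833). Of the 3 phosphofructokinase genes per kilobase of exon, Pfkp made up 9.87% and 16.1% in soft tissue sarcoma, 16.2% and 17.7% in osteosarcoma, against 40.1% and 45.0% in NG2 cells. Pfkm made up 36.4% and 36.7% in soft tissue sarcoma, 22.8% and 32.0% in osteosarcoma, against 10.5% and 5.76% in NG2 cells. Exons of Pitrm1 on the opposite strand overlap 5.58% of the exon bases of Pfkp. Pfkfb3, which makes an allosteric activator of phosphofructokinase, was at 29.6 and 50.7 CPM in soft tissue sarcoma, 42.2 and 15.5 CPM in osteosarcoma, against 85.9 and 196 CPM in NG2 cells (adjusted p = 0.0936 in soft tissue sarcoma and 0.0536 in osteosarcoma). Both tumour types lay below the NG2 cells, but the NG2 cell libraries differed from each other by more than the distance from the lower one to the tumours. Its relative Pfkfb4 was between 11.3 and 25.1 CPM in all 6 libraries. Hexokinases trap glucose in the cell. Hk2, a HIF target in many tumours, was at 71.4 and 91.3 CPM in soft tissue sarcoma, 59.6 and 30.0 CPM in osteosarcoma, against 52.1 and 65.4 CPM in NG2 cells, and Hk1 at 64.9 and 55.7 CPM in soft tissue sarcoma, 37.8 and 101 CPM in osteosarcoma, against 34.4 and 30.5 CPM in NG2 cells. As a share of the pair per kilobase, Hk1 was 38.9% and 29.9% in soft tissue sarcoma, 30.7% and 70.2% in osteosarcoma, against 31.6% and 24.6% in NG2 cells, and osteosarcoma replicate 2 was the 1 library in which it exceeded Hk2. Gpi1, the isomerase that follows, was between 206 and 424 CPM, and Aldoc, the brain-type aldolase, between 0.986 and 25.4 CPM with overlap among all 3 groups.

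Lower glycolysis, which yields ATP, held the most uniform change in soft tissue sarcoma. All 7 of its listed genes rose in soft tissue sarcoma, and 4 rose and 3 did not pass in osteosarcoma, with median log2 fold changes of 2.66 and 1.36. Beside this, 9.89% and 10.5% of all genes tested were called higher. Tpi1 (ENSMUSG00000023456; chromosome 6, 124810586 to 124814296), the triose phosphate isomerase, had 470.0 and 658 CPM in soft tissue sarcoma, 426 and 299 CPM in osteosarcoma, against 63.4 and 54.9 CPM in NG2 cells. It rose 9.53-fold in soft tissue sarcoma (log2 fold change 3.25 ± 0.34, adjusted p = 0.00863) and 6.13-fold in osteosarcoma (2.62 ± 0.33, adjusted p = 0.00838). Pgk1 (ENSMUSG00000062070; chromosome X, 106187100 to 106203699), the first enzyme of the pathway to yield ATP, had 318 and 446 CPM in soft tissue sarcoma, 249 and 161 CPM in osteosarcoma, against 63.6 and 50.2 CPM in NG2 cells, rises of 6.72-fold (adjusted p = 0.011) and 3.61-fold (adjusted p = 0.0199). Gapdh (ENSMUSG00000057666; chromosome 6, 125161715 to 125166467), often used as a reference gene, had 812 and 1121 CPM in soft tissue sarcoma, 756 and 699.6 CPM in osteosarcoma, against 286 and 279.7 CPM in NG2 cells. It rose 3.42-fold in soft tissue sarcoma (adjusted p = 0.0152) and 2.57-fold in osteosarcoma (adjusted p = 0.0238). For Tpi1, Pgk1 and Gapdh every tumour library was above both NG2 cell libraries.

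The later steps showed the same order of groups. Eno1 (ENSMUSG00000063524; chromosome 4, 150236721 to 150248879), the general enolase, had 957 and 1706 CPM in soft tissue sarcoma, 726 and 442 CPM in osteosarcoma, against 216 and 205 CPM in NG2 cells, and stood 6.31-fold (adjusted p = 0.0151) and 2.77-fold (adjusted p = 0.0493) above NG2 cells in soft tissue sarcoma and osteosarcoma. The call in osteosarcoma lay at the threshold: it was lost with RLE scaling (adjusted p = 0.0561), without immunoglobulin and mitochondrial genes (0.0541), in the 4 libraries alone (0.0711) and with a replicate block (0.083), and over all 7 alternatives that kept every library or only the 4 compared its adjusted p ran from 0.0071 to 0.083. Pgam1 (ENSMUSG00000011752; chromosome 19, 41911923 to 41918660), the phosphoglycerate mutase, had 151 and 260.3 CPM in soft tissue sarcoma, 67.6 and 53.3 CPM in osteosarcoma, against 30.8 and 23.1 CPM in NG2 cells. It rose 7.63-fold in soft tissue sarcoma (adjusted p = 0.011), and its log2 fold change of 1.17 ± 0.36 in osteosarcoma did not pass (adjusted p = 0.066). Pkm (ENSMUSG00000032294; chromosome 9, 59656368 to 59679375), the pyruvate kinase of most tissues, reached 3389 and 3607 CPM in soft tissue sarcoma, 1280 and 1582 CPM in osteosarcoma, against 901 and 861 CPM in NG2 cells, a rise of 3.97-fold in soft tissue sarcoma (adjusted p = 0.0118), with a log2 fold change of 0.70 ± 0.26 in osteosarcoma (adjusted p = 0.105). Counts per gene do not separate the splice forms of Pkm. For Eno1, Pgam1 and Pkm the 3 groups did not overlap.

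Eno2 (ENSMUSG00000004267; chromosome 6, 124760053 to 124769673), the neuronal enolase, did not share that order. It had 58.6 and 92.2 CPM in soft tissue sarcoma, 12.4 and 8.11 CPM in osteosarcoma, against 9.11 and 15.96 CPM in NG2 cells, a 6.01-fold rise in soft tissue sarcoma (adjusted p = 0.0191) and a log2 fold change of -0.29 ± 0.44 in osteosarcoma (adjusted p = 0.661). Soft tissue sarcoma stood apart, and the other groups overlapped. Near-identical transcripts (at least 95% identity over at least 200 bases) of 2 other genes in the tables held counts equal to between 24.4% and 30.4% of those of Eno1, and 115 such genes, most of them pseudogenes, held between 9.63% and 25.3% of those of Gapdh. How reads that match several genes were treated was not stated, so the levels of Eno1 and Gapdh are uncertain.

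**Figure D2:**
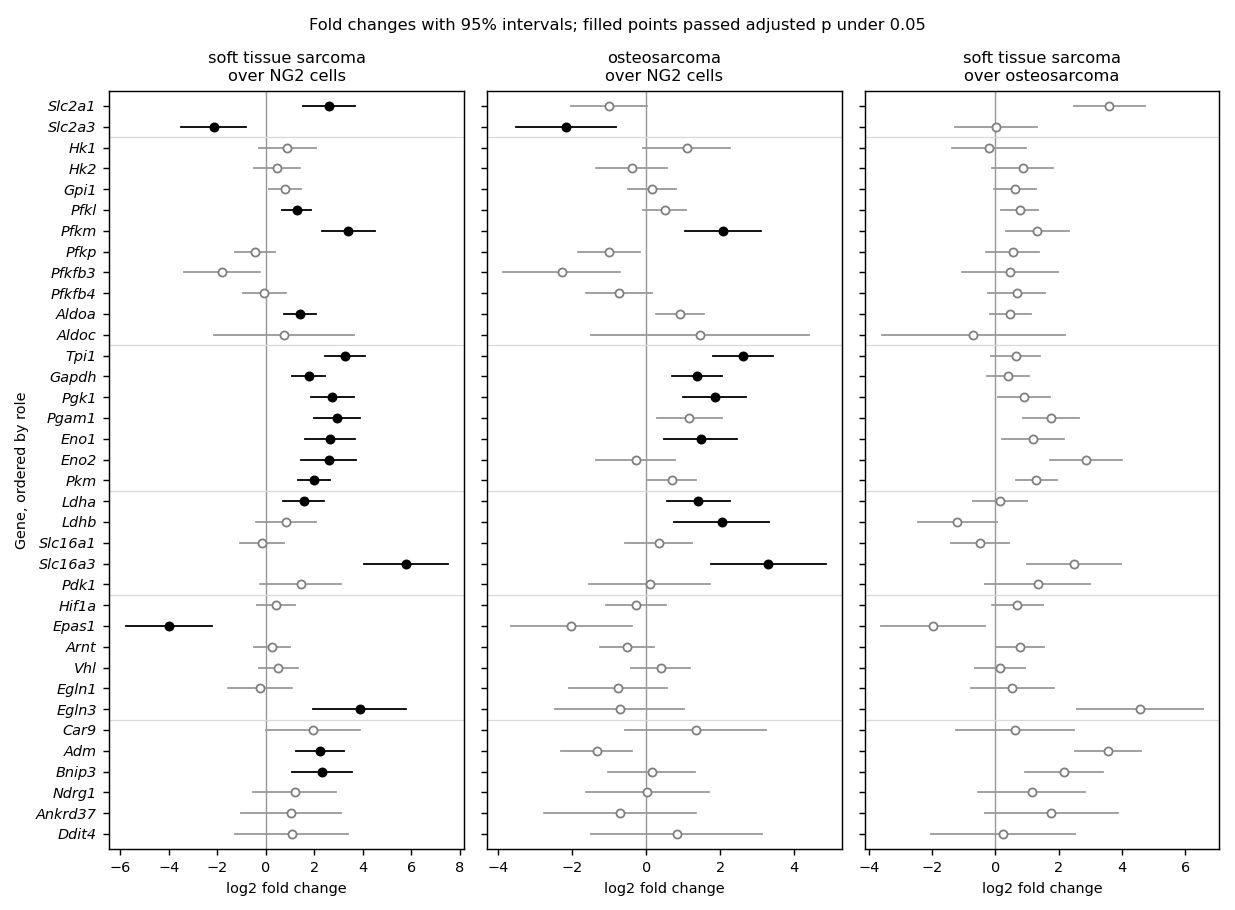
Log2 fold changes of the 36 genes with 95% intervals from edgeR's quasi-likelihood fit, in soft tissue sarcoma over NG2 cells, osteosarcoma over NG2 cells and soft tissue sarcoma over osteosarcoma. Filled points passed an adjusted p of 0.05, which 18, 9 and 0 genes did.

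At the end of the pathway, where lactate is made and exported, 2 of the 5 genes rose and 3 did not pass in soft tissue sarcoma, and 3 rose and 2 did not pass in osteosarcoma. The shares called higher over all genes tested were 9.89% and 10.5%. Ldha (ENSMUSG00000063229; chromosome 7, 46841475 to 46855627), the lactate dehydrogenase subunit that favours lactate formation, had 2280 and 2869 CPM in soft tissue sarcoma, 2881 and 1770 CPM in osteosarcoma, against 973 and 773 CPM in NG2 cells, rises of 2.95-fold (adjusted p = 0.0331) and 2.66-fold (adjusted p = 0.0389). The tumour types overlapped for Ldha and both were above NG2 cells. Ldhb (ENSMUSG00000030246; chromosome 6, 142490249 to 142507957), the subunit of oxidative tissues, had 51.3 and 31.1 CPM in soft tissue sarcoma, 53.5 and 135 CPM in osteosarcoma, against 20.6 and 25.4 CPM in NG2 cells. It rose 4.11-fold in osteosarcoma (adjusted p = 0.0421), 2.35-fold without osteosarcoma replicate 2, and its log2 fold change of 0.84 ± 0.51 in soft tissue sarcoma did not pass (adjusted p = 0.274). Per kilobase Ldha made up between 86.1% and 97.8% of the pair in all 6 libraries.

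Slc16a3 showed the largest fold change of the 36 genes in both comparisons with NG2 cells. It encodes MCT4, a monocarboxylate transporter that exports lactate and a known HIF target (ENSMUSG00000025161; chromosome 11, 120948480 to 120960868). Its levels were 71.5 and 109 CPM in soft tissue sarcoma, 21.02 and 11.4 CPM in osteosarcoma, against 0.831 and 2.45 CPM in NG2 cells, so the groups were ordered with no overlap. It rose 54.6-fold in soft tissue sarcoma (log2 fold change 5.77 ± 0.71, adjusted p = 0.0103) and 9.82-fold in osteosarcoma (3.30 ± 0.64, adjusted p = 0.0213). Without NG2 cell replicate 2 the values were 109-fold and 19.6-fold. All 8 macrophage markers were higher in both soft tissue sarcomas than in both NG2 cell libraries, whereas Cd68, Adgre1, Mrc1 and Lyz2 overlapped between osteosarcoma and NG2 cells, and their part in the rise was not tested. Slc16a1, which encodes the related transporter MCT1, was between 27.1 and 53.8 CPM in all libraries and did not pass (adjusted p = 0.801 in soft tissue sarcoma and 0.542 in osteosarcoma). As a share of the pair per kilobase, Slc16a3 was 66.5% and 71.9% in soft tissue sarcoma, 24.5% and 20.3% in osteosarcoma, against 2.49% and 4.31% in NG2 cells. Bsg, whose protein carries both transporters to the cell surface, had 974 and 788 CPM in soft tissue sarcoma, 960.1 and 917 CPM in osteosarcoma, against 241 and 199 CPM in NG2 cells and rose in both tumour types (log2 fold changes 2.00 ± 0.27 and 2.09 ± 0.27, adjusted p = 0.0119 and 0.00903). Pdk1, a kinase that keeps pyruvate out of the citric acid cycle, was at 19.9 and 34.8 CPM in soft tissue sarcoma, 12.5 and 9.14 CPM in osteosarcoma, against 4.35 and 15.9 CPM in NG2 cells and did not pass (adjusted p = 0.183 and 0.933).

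**Figure D3:**
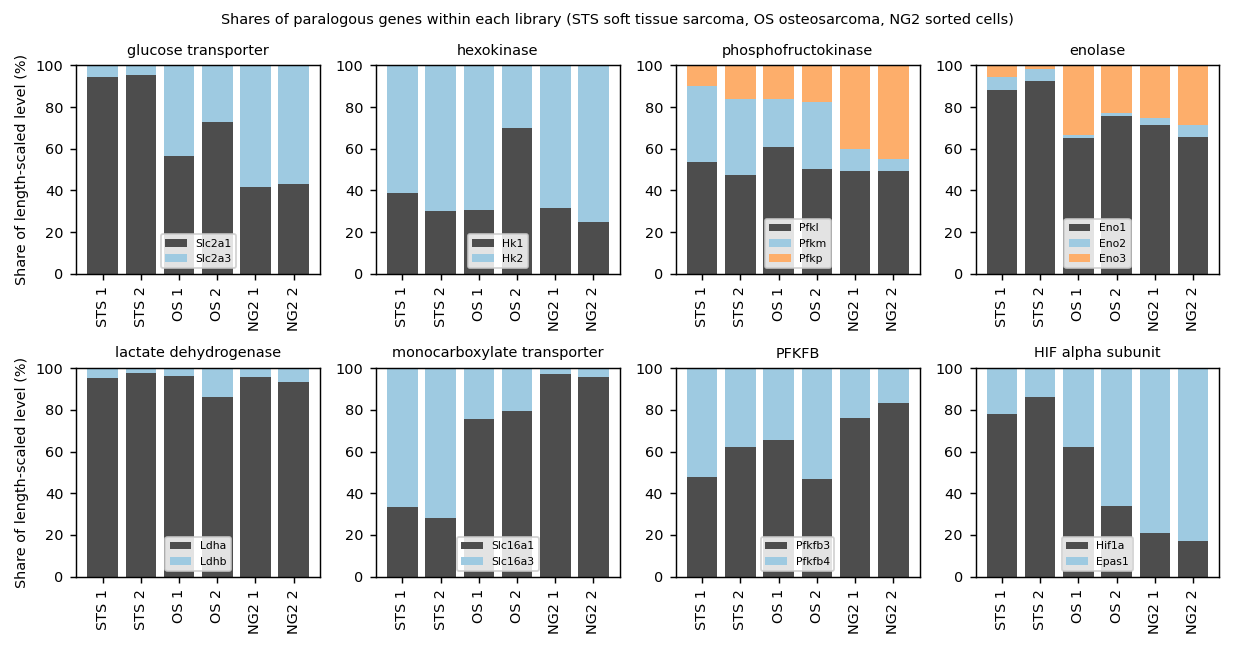
Share of each gene in the summed length-scaled level (CPM per kilobase of exon) of its family, as stacked bars that add to 100% in each of the 6 libraries. Slc16a3 and Slc2a1 hold their largest shares in the soft tissue sarcomas, and Pfkp and Epas1 in the NG2 cell libraries.

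Among the HIF factors and their oxygen sensing enzymes, Egln3 rose, Epas1 fell and 4 of the 6 genes did not pass in soft tissue sarcoma, and all 6 did not pass in osteosarcoma, where 0 were under 0.05 as higher and 1 as lower before adjustment and DESeq2 called Epas1 lower. Of all genes tested, edgeR called 9.89% higher and 9.4% lower in soft tissue sarcoma, and 10.5% higher and 11% lower in osteosarcoma. Hif1a (ENSMUSG00000021109; chromosome 12, 73901375 to 73947530), the widely used alpha subunit, had 84.1 and 117 CPM in soft tissue sarcoma, 57.2 and 66.6 CPM in osteosarcoma, against 59.0 and 91.1 CPM in NG2 cells and did not pass in either comparison (log2 fold changes 0.42 ± 0.33 and -0.28 ± 0.33, adjusted p = 0.389 and 0.566). The 95% intervals ran from -0.38 to 1.22 in soft tissue sarcoma and from -1.08 to 0.52 in osteosarcoma. Epas1 (ENSMUSG00000024140; chromosome 17, 86753700 to 86833410), the alpha subunit that is prominent in endothelial cells, had 22.1 and 17.6 CPM in soft tissue sarcoma, 33.2 and 123 CPM in osteosarcoma, against 208 and 424 CPM in NG2 cells. Epas1 fell 15.9-fold in soft tissue sarcoma (log2 fold change -3.99 ± 0.73, adjusted p = 0.0205), 10.4-fold without NG2 cell replicate 2, and in osteosarcoma its log2 fold change of -2.02 ± 0.67 did not pass (adjusted p = 0.0793). The 8 endothelial markers, each detected in every library, summed to 239 and 181 CPM in soft tissue sarcoma, 143 and 398 CPM in osteosarcoma, against 777 and 1366 CPM in NG2 cells. Pecam1, Cdh5, Tek and Vwf were higher in both NG2 cell libraries than in every tumour library. Kdr, Tie1 and Emcn were higher there than in both soft tissue sarcomas, but overlapped between osteosarcoma and NG2 cells. Cldn5 overlapped in both comparisons. The part of endothelial cells in the fall of Epas1 was not tested, nor was that of pericytes, whose markers above were mixed. Of the adipocyte markers, Plin1 and Lep were at 0 in all 6 libraries and Adipoq at 0 in both NG2 cell libraries, while Fabp4, which endothelial cells express as well, was at 20.5 and 38.9 CPM in soft tissue sarcoma, 19.7 and 49.1 CPM in osteosarcoma, against 432 and 871 CPM in NG2 cells. As a share of these alpha subunits per kilobase, Hif1a was 78.3% and 86.3% in soft tissue sarcoma, 62.0% and 34.0% in osteosarcoma, against 21.2% and 16.9% in NG2 cells.

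Egln3 was the gene of this group that rose. It encodes PHD3, an oxygen-dependent prolyl hydroxylase that is itself induced by HIF (ENSMUSG00000035105; chromosome 12, 54178981 to 54203860). Egln3 had 22.8 and 60.4 CPM in soft tissue sarcoma, 1.90 and 1.56 CPM in osteosarcoma, against 1.36 and 4.33 CPM in NG2 cells. The soft tissue sarcomas were above the other 4 libraries, which overlapped. It rose 14.6-fold in soft tissue sarcoma (log2 fold change 3.87 ± 0.79, adjusted p = 0.0258). That value was 9.65-fold without NG2 cell replicate 1, 30.9-fold without NG2 cell replicate 2 and 8.14-fold without soft tissue sarcoma replicate 2. In osteosarcoma the log2 fold change was -0.72 ± 0.72 (adjusted p = 0.497). Egln1, the main hydroxylase of HIF in normal oxygen, was between 24.8 and 97.5 CPM, Vhl, which recognises the hydroxylated subunit, between 24.2 and 45.4 CPM, and Arnt, the shared partner, between 50.6 and 102 CPM, and these 3 did not pass in either comparison.

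Of the 6 hypoxia targets outside metabolism, 2 rose and 4 did not pass in soft tissue sarcoma, where 9.89% of all genes tested were called higher. All 6 did not pass in osteosarcoma by edgeR, where before adjustment 0 were under 0.05 as higher and 1 as lower, and DESeq2 called Adm lower. Adm (ENSMUSG00000030790; chromosome 7, 110627661 to 110629820), which encodes the vasodilating peptide adrenomedullin, had 49.3 and 53.6 CPM in soft tissue sarcoma, 4.93 and 3.73 CPM in osteosarcoma, against 13.7 and 8.18 CPM in NG2 cells. It rose 4.70-fold in soft tissue sarcoma (log2 fold change 2.23 ± 0.40, adjusted p = 0.0195), while its log2 fold change in osteosarcoma was -1.34 ± 0.39 (adjusted p = 0.059). Bnip3 (ENSMUSG00000078566; chromosome 7, 138890836 to 138909519), a mitochondrial protein of mitophagy and cell death, had 140.2 and 182 CPM in soft tissue sarcoma, 46.0 and 25.7 CPM in osteosarcoma, against 19.9 and 44.8 CPM in NG2 cells. Bnip3 rose 4.97-fold in soft tissue sarcoma (adjusted p = 0.0307), 8.16-fold without NG2 cell replicate 2, and had a log2 fold change of 0.15 ± 0.48 in osteosarcoma (adjusted p = 0.846). The promoter stretches above hold 2 matches for Adm and 5 for Bnip3. For both genes the soft tissue sarcomas lay above all other libraries. An antisense gene overlaps 22.3% of the exon bases of Bnip3, so its count is uncertain if strand was not used.

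The other 4 targets were low or uneven. Car9, a membrane carbonic anhydrase often used as a marker of tumour hypoxia, was at 3.61 and 7.11 CPM in soft tissue sarcoma, 1.88 and 5.16 CPM in osteosarcoma, against 1.22 and 1.56 CPM in NG2 cells (adjusted p = 0.131 and 0.253). Ndrg1, a stress-response gene, had 47.9 and 193 CPM in soft tissue sarcoma, 61.5 and 46.6 CPM in osteosarcoma, against 34.2 and 71.5 CPM in NG2 cells, so soft tissue sarcoma replicate 1 lay among the other groups and replicate 2 above them (adjusted p = 0.262 and 0.98). Ddit4, which encodes an inhibitor of mTORC1 signalling, was between 2.20 and 19.6 CPM, and both of these values were from osteosarcoma. Ankrd37, an ankyrin repeat gene, was between 1.21 and 14.8 CPM, and 22.7% of its exon bases overlap exons of Lrp2bp on the opposite strand.

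**Figure D4:**
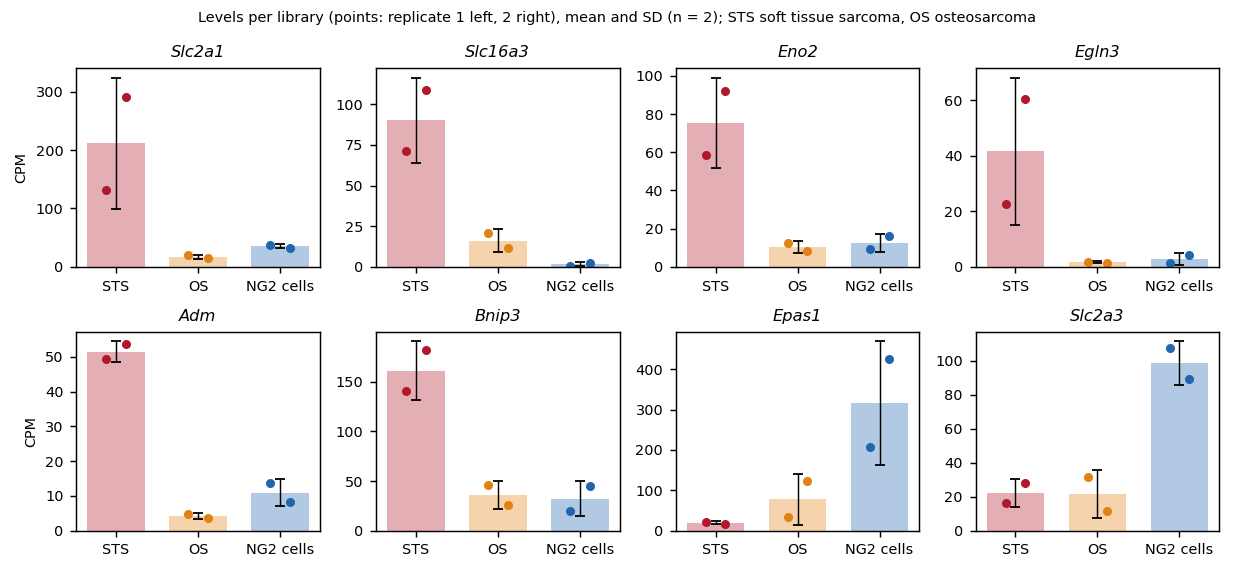
Normalised read counts (CPM, linear axis from 0) of 8 genes, with points for the libraries, bars for the mean and error bars for the SD (n = 2). Slc2a1, Eno2, Egln3, Adm and Bnip3 were higher in both soft tissue sarcomas than in the 4 other libraries, and Epas1 and Slc2a3 were highest in the NG2 cells.

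Soft tissue sarcoma was also set against osteosarcoma, to see where the tumour types differed in these genes. By edgeR 0 of the 36 genes were called in that comparison, in which 0.0841% of all genes tested were called higher and 0.0578% lower (0.142% in either direction). Before adjustment 13 of the 36 were under 0.05 as higher and 1 as lower, and DESeq2 called 10 higher and 1 lower. The median log2 fold change was 0.69 over the 36 genes and -0.03 over all genes tested. Both soft tissue sarcomas lay above both osteosarcomas for 22 of the 36 genes and below both for 3, where 25.8% and 24.5% of all genes tested did so. All 7 genes of lower glycolysis were among the 22. The smallest adjusted p was 0.0583, shared by Slc2a1 (log2 fold change 3.60 ± 0.46) and Adm (3.57 ± 0.42), followed by 0.0831 for Eno2 (2.87 ± 0.47) and 0.0962 for Egln3 (4.58 ± 0.81). The 95% intervals of these differences ran from 2.47 to 4.73 for Slc2a1, 2.53 to 4.6 for Adm, 1.74 to 4.01 for Eno2 and 2.59 to 6.57 for Egln3. For Slc16a3 the log2 fold change was 2.47 ± 0.61 (adjusted p = 0.153), for Bnip3 2.16 ± 0.50 (adjusted p = 0.144), for Pgam1 1.77 ± 0.36 (adjusted p = 0.119) and for Pkm 1.29 ± 0.27 (adjusted p = 0.118). Ldha had a log2 fold change of 0.15 with a 95% interval from -0.69 to 0.99. Differences that edgeR did not call are not shown to be absent.

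Genes of the same pathways outside the 36 were counted by list, and some stand in more than 1 list. Gys1 and Gbe1 are counted among both the further hypoxia targets and the pentose phosphate and glycogen genes. Pfkfb2 is counted among both the further hypoxia targets and the other glycolysis genes. Of 50 tested further hypoxia targets, 18 rose, 5 fell and 27 did not pass in soft tissue sarcoma, and 17 rose, 7 fell and 26 did not pass in osteosarcoma. Over all genes tested, 9.89% were called higher and 9.4% lower in soft tissue sarcoma, and 10.5% higher and 11% lower in osteosarcoma. The median log2 fold change of that list was 1.57 in soft tissue sarcoma and 1.10 in osteosarcoma. Plod2, a lysyl hydroxylase of collagen, was at 80.3 and 67.9 CPM in soft tissue sarcoma, 245 and 473 CPM in osteosarcoma, against 5.62 and 8.23 CPM in NG2 cells (adjusted p = 0.0108 and 0.0048). Tmem45a was at 40.9 and 94.0 CPM in soft tissue sarcoma, 56.8 and 92.5 CPM in osteosarcoma, against 1.80 and 1.26 CPM in NG2 cells (adjusted p = 0.00865 and 0.0063). Both genes were higher in every tumour library than in the NG2 cells. Fam162a, which encodes a mitochondrial protein, was at 219 and 339.9 CPM in soft tissue sarcoma, 129.8 and 82.8 CPM in osteosarcoma, against 27.4 and 33.5 CPM in NG2 cells (adjusted p = 0.00991 and 0.0238), and P4hb, a subunit of the collagen prolyl hydroxylase, at 1726 and 2323 CPM in soft tissue sarcoma, 2023 and 1644 CPM in osteosarcoma, against 448 and 297 CPM in NG2 cells (adjusted p = 0.013 and 0.0117). The matrix genes Col1a1, Col3a1 and Spp1 among the osteoblast and fibroblast markers were also higher in every tumour library than in the NG2 cells, with Col1a1 at 2389 and 1779 CPM in soft tissue sarcoma, 32201 and 19599 CPM in osteosarcoma, against 41.3 and 19.1 CPM in NG2 cells, and the part of such cells was not tested. Other markers of these lists did not share that direction. Alpl was lower in both soft tissue sarcomas, at 2.18 and 1.72 CPM, than in both NG2 cell libraries and higher in both osteosarcomas, and Dpp4 was at 3.98 and 0.236 CPM in soft tissue sarcoma, 0 and 1.21 CPM in osteosarcoma, against 52.1 and 26.4 CPM in NG2 cells. Runx2, Bglap, Dmp1 and Sp7 overlapped between soft tissue sarcoma and NG2 cells, Dcn and Lum between osteosarcoma and NG2 cells, and Pi16 in both comparisons. Cxcr4, a chemokine receptor of leukocytes, fell to 14.1 and 10.8 CPM in soft tissue sarcoma and 3.96 and 5.48 CPM in osteosarcoma, against 192 and 159.7 CPM in NG2 cells. Bhlhe40, a transcriptional repressor, and Edn1, the endothelin peptide of endothelial cells, fell as well (log2 fold changes -1.89 and -3.17 in soft tissue sarcoma, -1.89 and -3.64 in osteosarcoma).

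Among 19 further HIF regulators tested, 2 rose, 2 fell and 15 did not pass in soft tissue sarcoma, and 2 fell and 17 did not pass in osteosarcoma. These shares are near those of all genes tested (9.89% higher and 9.4% lower in soft tissue sarcoma, 11% lower in osteosarcoma), so the counts say nothing of the list. Hif1an, the asparaginyl hydroxylase that keeps HIF from its coactivators, was at 18.8 and 19.5 CPM in soft tissue sarcoma, 14.8 and 13.7 CPM in osteosarcoma, against 78.2 and 57.2 CPM in NG2 cells and fell in both tumour types (log2 fold changes -1.82 ± 0.30 and -2.25 ± 0.31, adjusted p = 0.0165 and 0.00959). Rbx1 and Elob, subunits of the VHL ubiquitin ligase, rose in soft tissue sarcoma (log2 fold changes 1.48 and 1.32), and the coactivator Crebbp fell there (-0.92). Arntl, a clock factor of the same protein family as ARNT, fell in osteosarcoma (-2.84). Of 27 other genes of glycolysis and glucose uptake tested, 3 rose, 1 fell and 23 did not pass in soft tissue sarcoma, and 3 rose, 3 fell and 21 did not pass in osteosarcoma, with rises in both and falls in osteosarcoma again near the shares of all genes tested (9.89% and 10.5% higher, 11% lower). Pgm1, of the phosphoglucomutase family, and Pck2, the mitochondrial enzyme that makes phosphoenolpyruvate, rose in both (log2 fold changes 2.46 and 1.30 in soft tissue sarcoma, 1.70 and 1.26 in osteosarcoma). The glucose transporter Slc2a6 fell in both (-1.91 and -3.35). In osteosarcoma Slc2a10, another transporter of the family, rose (3.49) and Gpd2, the mitochondrial glycerol phosphate dehydrogenase, fell (-2.13). Fbp2, a muscle enzyme of gluconeogenesis, was called lower in osteosarcoma with 0 counts, against 5.98 and 3.94 CPM in NG2 cells.

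In pyruvate handling and lactate transport, 2 of 16 tested genes rose, 1 fell and 13 did not pass in soft tissue sarcoma, and 3 rose, 1 fell and 12 did not pass in osteosarcoma, where 9.89% and 10.5% of all genes tested were called higher and 9.4% and 11% lower. Besides Bsg, the pyruvate dehydrogenase kinase Pdk3 rose in both (log2 fold changes 1.60 and 1.93), and Mpc2, a subunit of the mitochondrial pyruvate carrier, rose in osteosarcoma (1.98). Pdp2, a phosphatase that reverses the kinases, fell in both (-1.72 and -1.53). In the pentose phosphate and glycogen list, 6 of 16 rose, 1 fell and 9 did not pass in soft tissue sarcoma, and 5 rose and 11 did not pass in osteosarcoma, beside the same shares of all genes. Gaa, the lysosomal glucosidase of glycogen, and H6pd, which starts the pentose phosphate pathway in the endoplasmic reticulum, rose in both (log2 fold changes 2.29 and 4.17 in soft tissue sarcoma, 2.60 and 3.77 in osteosarcoma). Gys1, a glycogen synthase, rose in soft tissue sarcoma (2.34), Pgls, the lactonase of the pentose phosphate pathway, rose in osteosarcoma (1.24), and Rpia, the ribose phosphate isomerase, fell in soft tissue sarcoma (-2.20).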

How the data were processed

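RNA from oligo(dT) priming was measured in 6 libraries. Per the labels' protocols, about 10 ng of total RNA was copied with template switching and amplified in 20 PCR cycles. Levels per kilobase can thus carry end bias. The Wilson intervals of shares cover counting error only and leave out error from amplification. The intervals of log2 fold changes come from edgeR's fit and include the spread between libraries. The authors deposited raw counts of reads for each Ensembl gene. The submitters' processing notes name STAR, HTSeq, DESeq2, Trim Galore with cutadapt, and FastQC, and the builds GRCm38 and mm10. Versions, strand settings and the treatment of reads with several matches are not given in the sources used here. Reads on no feature were 33.2% in both NG2 cell libraries and 19.5% to 23.4% in the tumour libraries. They were left out, and their share differed between tumours and NG2 cells. Gene positions and lengths came from GENCODE M21 (GRCm38), which held 36723 of the 38561 IDs.

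From the deposited counts, edgeR 4.0.16 in R 4.3.3 fitted 1 model of all 6 libraries (TMM, filterByExpr with a minimum count of 10 and total of 15, no covariates), with 3 residual and 3.04 prior degrees of freedom. Its code was tested on simulated data. Each SE is the size of the log2 fold change divided by the square root of F, and CPM used the TMM factors. Alternatives included DESeq2 1.42.0. Near-identical transcripts were found with blastn 2.17.0. The file names give each group a sequencing lane of its own, so lane and group cannot be told apart. An exact permutation test of 2 against 2 libraries cannot go below 0.333, so none was run. The 36 genes and the other lists were chosen with earlier results of these data known. All 36 genes are named, and of each other list up to 3 called genes per direction and comparison, by smallest p, except for a result that is not reported here.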

Additional observations from a re-analysis of the deposited data

How the results depend on the processing

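The alternatives were RLE and upper quartile scaling, DESeq2, no filter on low counts, only the 4 libraries compared, no immunoglobulin and mitochondrial genes, a replicate block, and each library left out. In soft tissue sarcoma against NG2 cells the genes called higher came to 15 to 17 and those called lower to 1 to 3 under all of these except leaving a library out, where the counts ranged from 0 to 16 higher and from 0 to 2 lower. In osteosarcoma against NG2 cells 2 higher and 0 lower were called in the 4 libraries alone, DESeq2 called 11 higher and 5 lower, 3 were lower without the filter, RLE and the fit without immunoglobulin and mitochondrial genes called 7 higher (Eno1 was lost), and leaving out libraries gave 2 to 7 higher and 0 to 2 lower. Between the tumour types DESeq2 called 10 higher and 1 lower and the fit without the filter called 4 higher, while the others, and each library left out, called 0. Same-numbered libraries did not deviate together (r = 0.049 in osteosarcoma and NG2 cells, -0.003 in soft tissue sarcoma and NG2 cells, -0.086 in soft tissue sarcoma and osteosarcoma). Since libraries of a group also differed in cell markers, these values cannot show whether same-numbered libraries share an animal. With the replicate block 5 genes were higher and 0 lower in osteosarcoma, and 15 were higher and 1 lower in soft tissue sarcoma, against NG2 cells. The cause of these differences was not tested, beyond the fewer samples in fits that leave libraries out. With 1 library in a group, that library is assumed to vary like those of the other groups.

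Signs turned only for genes that edgeR did not call. Ndrg1 in osteosarcoma against NG2 cells was at -0.0187 with RLE and with DESeq2. Over the fits that left a library out, log2 fold changes of osteosarcoma over NG2 cells ran from -0.97 to 0.0337 for Hk2, -0.64 to 0.18 for Eno2, -0.56 to 1.32 for Pdk1, -0.56 to 0.0777 for Hif1a, -1.33 to 0.36 for Egln3, -0.34 to 0.86 for Bnip3, -0.41 to 0.67 for Ndrg1, -2.44 to 0.0496 for Ankrd37 and -1.47 to 1.67 for Ddit4. Those of soft tissue sarcoma over NG2 cells ran from -0.30 to 0.26 for Pfkfb4, -0.10 to 3.30 for Aldoc, -0.47 to 0.28 for Slc16a1, -0.65 to 0.38 for Egln1 and -0.12 to 1.89 for Ndrg1. Those of soft tissue sarcoma over osteosarcoma ran from -0.51 to 0.96 for Slc2a3, -0.71 to 0.68 for Hk1, -0.0664 to 1.40 for Pfkfb3, -1.47 to 0.68 for Aldoc, -0.16 to 0.58 for Ldha, -0.0509 to 0.39 for Vhl, -0.16 to 1.84 for Ndrg1 and -0.58 to 2.55 for Ddit4.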
